A study of Homo sapiens with 6 samples.

Results

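Collagens and small leucine-rich proteoglycans (SLRPs) were followed by RNA-seq in SW620, a colorectal adenocarcinoma line grown from a lymph node metastasis, after transfection with a control siRNA (siNC, 3 libraries) or with an siRNA against OSBPL3 (siOSBPL3, 3 libraries). Members were taken by name, with no threshold on a measured value: each gene whose symbol is COL, a number, A and a number, and LUM, DCN, BGN, FMOD, OGN, PRELP, KERA and ASPN. The deposited table held 40 of them among its 20729 genes, 34 collagens and 6 SLRPs. KERA and ASPN, with no row, were not analysed here. Several collagens, among them COL1A2, COL4A5 and COL23A1, had no row either, so statements on classes and sums cover only the 34 present. OSBPL3 encodes a lipid-binding protein of membrane contact sites, and the series ties it to Hippo-YAP signalling and MEK inhibition. Both groups carry the same cell line label and no other agent is named. The sources used here give neither the number of siRNAs nor their dose nor the time after transfection. They do not say that replicates were separate cultures, and p-values then reflect only how far these libraries vary, possibly for technical reasons.

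Collagens are built from chains with a regularly repeated glycine that lets them wind around each other as a triple helix. Chains are hydroxylated and glycosylated in the endoplasmic reticulum, secreted, and then assembled into fibrils, networks or filaments according to type. SLRPs such as lumican and decorin are secreted core proteins that bind collagen fibrils and set their spacing. In colorectal tumours most fibrillar collagen and SLRP transcript is known to come from stromal fibroblasts rather than from the cancer cells, whereas epithelial cells make basement membrane collagens and the transmembrane collagen XVII.

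Library totals ran from 30040020 to 39701340 counts. OSBPL3 itself stood at 179, 174 and 175 CPM (counts scaled to a common library size with TMM, edgeR's factor for library composition) in siNC and at 40.2, 12.2 and 15.1 CPM in siOSBPL3, so that its transcript was lower in every library labelled siOSBPL3 (log2 fold change -2.97 ± 0.48 SE, edgeR adjusted p = 0.0016). The test covered 15506 genes, of which 80.2% were called at an adjusted p of 0.05. Of 12 epithelial and colorectal markers 10 were tested, 5 higher and 3 lower (3 and 3 without siNC replicate 1 or 2, and 4 and 4 corrected for transcript GC content and length), with summed levels of 7114 to 7191 CPM in siNC and 4924 to 6059 CPM in siOSBPL3. EPCAM (516 and 620 CPM, means of siNC and siOSBPL3), KRT8 (2997 and 2383) and KRT19 (719 and 844) were high in both groups. KRT18 was also high in both but fell from 2184 to 1131 CPM (log2 fold change -0.95 ± 0.10 SE). CDH1 stood at 229 and 207 CPM and was not called. The colorectal markers KRT20, CDX1 and CEACAM5 averaged at most 0.44 CPM in either group. VIL1 (villin) fell from 482 to 62.6 CPM, and CDX2 (1.15 to 63.5 CPM), CDH17 (12.2 to 41.3) and LGALS4 (0.40 to 9.08) rose. An effect of OSBPL3 depletion and any other difference between the cells of the groups cannot be told apart in this design.

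Of the 40 members, 21 had enough counts to be tested, and 19 did not, with at most 48 counts each over the 6 libraries. Among those tested, 9 were higher in siOSBPL3, 11 were lower and 1, COL4A1, missed the threshold. A share of 80.2% of all tested genes was called in the same comparison (40.4% higher and 39.8% lower), so that 20 calls among 21 is a count near that background and not a result about the members. Sizes were wide. Of the 21, 10 were called with at least 8-fold by the fit, against 14.3% of all genes tested. At least 2-fold was called for 19, against 48.9%. Some members, such as LUM and COL13A1, were near 0 in 1 group and passed the filter on low counts only through the other. A gene that passes in that way has a large fold from the start, and its fitted size is uncertain. Members were chosen with earlier results of these data known, so these shares describe the members and are not a test of them. The median log2 fold change was -1.13 over the tested members and -0.00089 over all genes tested. Over the 20 tested collagens, which leaves out LUM alone, it was -0.29. The groups did not overlap in CPM for 20 of the 21, and for 83.0% of all genes tested.

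**Figure D1:**
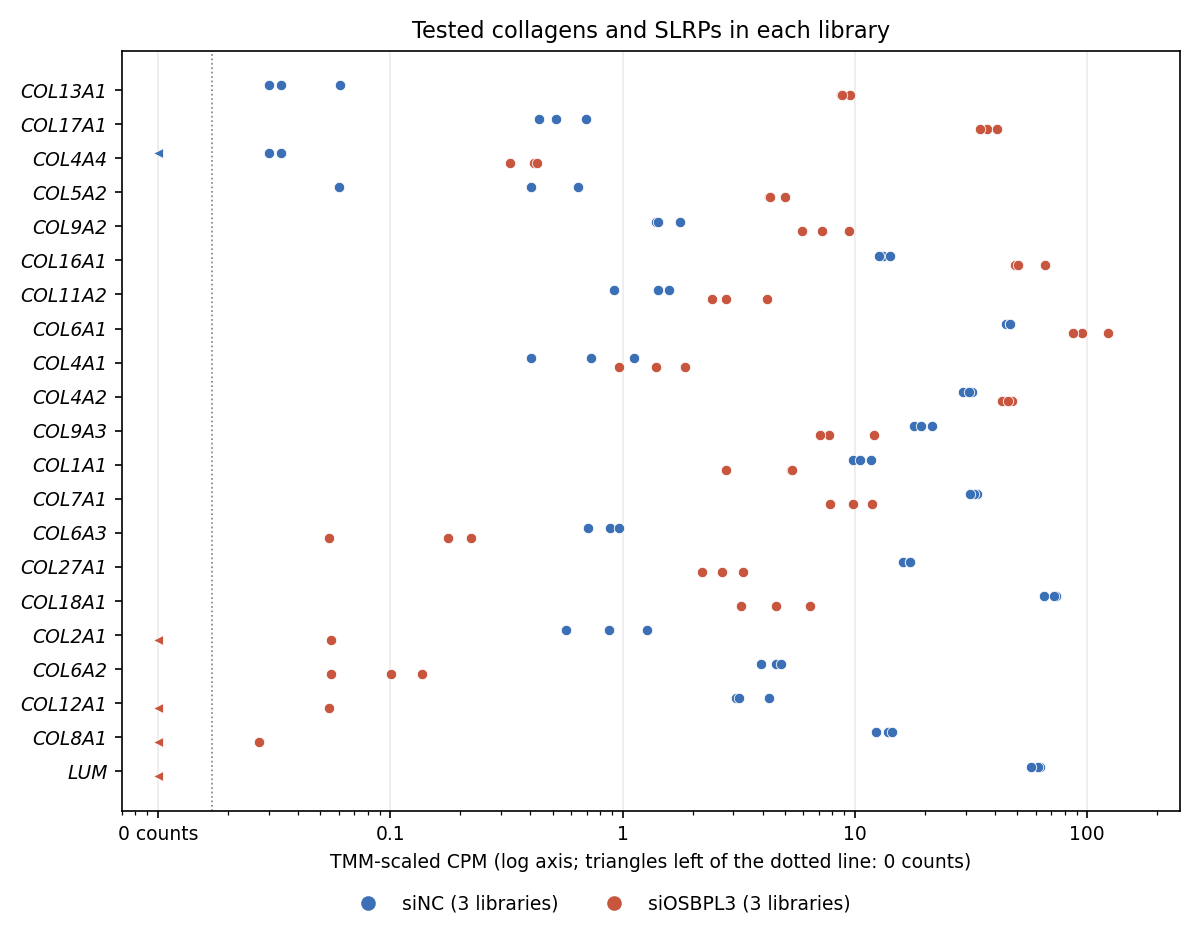
CPM (log axis) of each of the 21 tested members in each library, siNC in blue and siOSBPL3 in red, with libraries at 0 counts as triangles left of the dotted line. LUM and COL8A1 lie above 12 CPM in each siNC library and at 0 or 1 count in siOSBPL3. COL13A1 and COL17A1 lie at no more than 0.69 CPM in siNC and at 8.67 CPM or more in siOSBPL3. COL4A1 is the member whose groups overlap.

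The promoter windows printed here belong to members discussed below: the pair COL4A1 and COL4A2, which start head to head, and COL13A1 and COL17A1, which were higher in siOSBPL3 from very low levels. All are from RefSeq on GRCh38.p14, 250 bases before to 50 after the annotated start, read 5′ to 3′ on the gene's strand. Of the 40 members 29 matched an entry in that table. Capitals in the COL4A1 (chr13:110307108-110307407, minus strand) and COL4A2 (chr13:110307034-110307333, plus strand) windows mark the bases from one start to the other, which lie 127 bases apart.
COL4A1: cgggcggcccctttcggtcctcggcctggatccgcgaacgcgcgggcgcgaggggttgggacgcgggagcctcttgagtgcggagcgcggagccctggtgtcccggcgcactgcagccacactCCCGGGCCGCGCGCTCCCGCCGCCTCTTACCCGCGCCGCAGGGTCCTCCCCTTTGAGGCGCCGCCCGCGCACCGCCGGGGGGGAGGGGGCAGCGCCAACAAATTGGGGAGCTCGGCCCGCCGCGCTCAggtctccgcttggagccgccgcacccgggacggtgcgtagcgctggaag
COL4A2: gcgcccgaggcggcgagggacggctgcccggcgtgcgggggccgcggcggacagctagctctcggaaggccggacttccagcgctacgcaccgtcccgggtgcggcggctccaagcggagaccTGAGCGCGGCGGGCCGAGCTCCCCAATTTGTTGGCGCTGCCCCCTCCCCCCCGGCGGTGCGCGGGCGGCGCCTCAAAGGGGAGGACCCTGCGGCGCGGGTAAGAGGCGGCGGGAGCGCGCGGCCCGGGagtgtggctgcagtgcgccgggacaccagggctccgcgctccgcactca
Capitals in the COL13A1 (chr10:69801656-69801955, plus strand) and COL17A1 (chr10:104085831-104086130, minus strand) windows mark each CG, the dinucleotide at which DNA is methylated.
COL13A1: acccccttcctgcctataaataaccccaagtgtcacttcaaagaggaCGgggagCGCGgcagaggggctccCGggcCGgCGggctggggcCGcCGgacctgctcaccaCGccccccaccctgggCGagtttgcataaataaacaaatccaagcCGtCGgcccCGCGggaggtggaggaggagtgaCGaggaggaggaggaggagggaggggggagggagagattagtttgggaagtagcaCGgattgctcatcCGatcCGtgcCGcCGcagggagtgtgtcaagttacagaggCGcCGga
COL17A1: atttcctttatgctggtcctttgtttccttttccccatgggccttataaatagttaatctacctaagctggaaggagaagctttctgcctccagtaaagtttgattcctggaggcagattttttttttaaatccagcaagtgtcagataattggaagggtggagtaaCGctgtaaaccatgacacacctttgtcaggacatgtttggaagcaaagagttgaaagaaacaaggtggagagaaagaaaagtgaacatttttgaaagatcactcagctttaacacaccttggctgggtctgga
The COL13A1 window holds 22 CG and the COL17A1 window 1, against a median of 14 over 27305 promoter windows of that length. These are counts of letters, and methylation was not measured.

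Among the 6 SLRPs of the rule, LUM alone exceeded 1 CPM in any library. LUM encodes lumican, a keratan sulphate proteoglycan of connective tissue and cornea (chromosome 12, 91102629 to 91111494, GRCh38.p14). It had 2054, 2027 and 1704 counts in the siNC libraries (62.5, 61.1 and 57.4 CPM) and 0 counts in each siOSBPL3 library. Against 3 counts over the group, the floor used for a group at 0, LUM was at least 2262-fold lower (edgeR adjusted p = 3.63e-11). DCN, the decorin gene whose protein also binds collagen fibrils, lies 28989 bases away. It had 4, 0 and 1 counts in siNC and 0, 1 and 0 in siOSBPL3, so that LUM was counted in siNC without its neighbour.

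The other 5 SLRPs of the rule stood near the detection limit in both groups. FMOD (fibromodulin) had 5, 10 and 13 counts in siNC and 0 in each siOSBPL3 library, at least 10.9-fold lower by the same floor, and did not pass the filter on low counts. BGN (biglycan) had 6 counts over the siNC libraries and 2 over siOSBPL3, PRELP had 3 and 4, and OGN (osteoglycin) had 1 and 0. Summed over the 6 SLRPs, the level was 58.0 to 62.9 CPM in siNC and 0 to 0.11 CPM in siOSBPL3, nearly all of it LUM. Of 10 further SLRPs listed, 6 had a row and 4 could be tested, 3 higher and 1 lower (median 1.77; 2 higher and 1 lower, median 0.83, corrected for transcript GC content and length). TSKU (tsukushi) rose from 21.0 to 84.0 CPM (log2 fold change 2.00 ± 0.10; 1.23 once corrected). ECM2, which lies 88.8 kb from OGN, had 192 counts over the siNC libraries and 2 over siOSBPL3.

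Network-forming COL8A1 fell along with LUM. COL8A1 encodes the alpha-1 chain of collagen VIII, a short-chain collagen of vessel walls and of the membrane beneath the corneal endothelium (chromosome 3, 99638594 to 99799217). It had 456, 481 and 364 counts in siNC (13.9, 14.5 and 12.3 CPM) and 0, 1 and 0 counts in siOSBPL3. The ratio was 1526, with an exact 95% counting interval from 273 to 60312 (edgeR adjusted p = 3.66e-10). COL8A2, its partner chain, had 15, 7 and 8 counts against 1, 11 and 6, and the groups overlapped. COL10A1, the short-chain collagen of hypertrophic cartilage, had 6 counts over siNC and 1 over siOSBPL3. Intervals and floors cover counting error only.

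Both transmembrane collagens that had a row, COL17A1 and COL13A1, were higher in siOSBPL3. COL17A1 encodes collagen XVII, the hemidesmosome protein that anchors epithelial cells to the basement membrane (chromosome 10, 104031286 to 104085880). It stood at 0.52, 0.69 and 0.44 CPM in siNC and at 37.0, 40.7 and 34.5 CPM in siOSBPL3, a log2 fold change of 6.07 ± 0.17 (edgeR adjusted p = 3.09e-11). COL13A1 encodes collagen XIII, a membrane collagen of cell-matrix adhesions (chromosome 10, 69801906 to 69959144). It had 2, 1 and 1 counts in siNC and 344, 317 and 347 in siOSBPL3 (9.53, 8.67 and 8.77 CPM). The ratio was 215, with a counting interval from 83.7 to 790 (fitted log2 fold change 7.63, and 7.02 corrected for GC content and length). Both genes were present in every siOSBPL3 library at levels above any siNC library, and their spread within siOSBPL3 (CV, the SD as a percent of the mean, 8.31% and 5.21%) was at the low end of the members'.

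Collagen XVIII and the anchoring collagen VII fell. COL18A1 encodes the basement membrane proteoglycan from which endostatin is released (chromosome 21, 45405165 to 45513720). It was the most counted collagen in siNC, at 65.3, 73.5 and 72.1 CPM, and stood at 6.40, 4.57 and 3.24 CPM in siOSBPL3 (log2 fold change -3.90 ± 0.19, edgeR adjusted p = 2.28e-09). In GENCODE 29 its exons share 16.4% of their bases with exons of SLC19A1 on the other strand. SLC19A1, a folate carrier gene, moved oppositely, from 15.7 to 43.4 CPM, and with the strand setting of the counting not given, reads of the shared bases cannot be told apart. COL7A1 encodes the chain of the anchoring fibrils beneath epithelia. It stood at 33.5, 32.7 and 31.3 CPM in siNC and at 11.9, 9.76 and 7.79 CPM in siOSBPL3 (-1.73 ± 0.14, adjusted p = 2.64e-07). With a correction for transcript GC content and length the values of COL18A1 and COL7A1 were -4.80 and -2.63.

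The chains of collagen VI, which assemble as a heterotrimer of alpha-1, alpha-2 and alpha-3, parted. COL6A1 (chromosome 21, 45981770 to 46005048) stood at 44.8, 46.6 and 46.4 CPM in siNC and at 95.3, 123 and 87.0 CPM in siOSBPL3, higher in each (1.15 ± 0.12, edgeR adjusted p = 1.88e-06). COL6A2, 93.1 kb further along the chromosome, stood at 3.93, 4.58 and 4.79 CPM in siNC and fell to 2, 5 and 4 counts in siOSBPL3 (-5.45 ± 0.39, adjusted p = 6.67e-08). COL6A3 had 29, 32 and 21 counts in siNC and 8, 2 and 7 in siOSBPL3 (-2.47 ± 0.54, adjusted p = 0.0012). Per kb of median transcript, the level of COL6A1 was 9.04 times that of COL6A2 in siNC and 908 times in siOSBPL3, and with the longest transcripts 8.47 and 851 times. The rise of COL6A1 was small once corrected for GC content and length (0.30, adjusted p = 0.022), whereas COL6A2 stood at -6.37 with that correction.

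Of the basement membrane collagens, COL4A2 was counted far above COL4A1, its partner in the collagen IV network. COL4A2 stood at 32.0, 29.1 and 30.9 CPM in siNC and at 42.8, 47.6 and 45.4 CPM in siOSBPL3 (0.56 ± 0.09, edgeR adjusted p = 9.83e-05), a rise whose call was lost after correcting for GC content and length (0.13, adjusted p = 0.21). COL4A1, which starts 127 bases away on the opposite strand, had 24, 37 and 12 counts in siNC and 67, 51 and 38 in siOSBPL3, and its groups overlapped in CPM (0.89 ± 0.44, adjusted p = 0.082; adjusted p = 0.045 without siNC replicate 2). Per kb of median transcript COL4A2 was 43.9 times COL4A1 in siNC and 34.6 times in siOSBPL3, and 41.7 and 32.8 times with the longest transcripts. The 226 bases that the printed windows share therefore belong to genes whose counts differed widely in both groups. A similar head-to-head pair, COL4A3 and COL4A4, was nearly silent: COL4A3 had 0 counts in all 6 libraries, and COL4A4 had 0, 1 and 1 counts in siNC and 15, 12 and 17 in siOSBPL3 (ratio 18.8, interval 4.89 to 160). COL4A6 had at most 6 counts in any library.

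**Figure D2:**
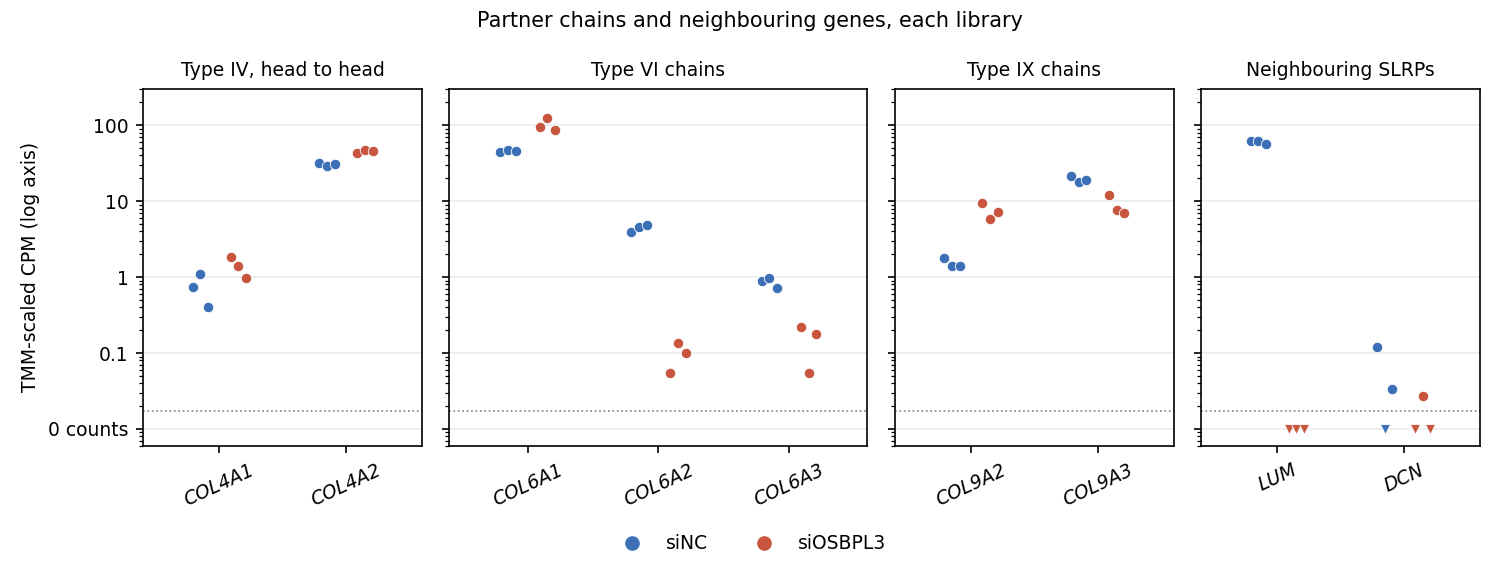
CPM (log axis) in each library for chains that assemble together or genes that lie side by side, siNC in blue and siOSBPL3 in red, with 0 counts as triangles below the dotted line. COL4A2 lies above COL4A1 in both groups, COL6A1 is higher in siOSBPL3 while COL6A2 and COL6A3 are lower, COL9A2 and COL9A3 move in opposite directions, and DCN stays near 0 beside LUM.

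Among the FACIT collagens, which decorate the surface of fibrils, COL16A1 was the highest in siOSBPL3. In siNC COL9A3 was above it in CPM and per kb of longest transcript, but not per kb of median transcript. COL16A1 stood at 13.2, 12.7 and 14.1 CPM in siNC and at 65.6, 48.8 and 50.4 CPM in siOSBPL3 (2.04 ± 0.13, edgeR adjusted p = 1.92e-08; 1.05 with the GC and length correction). The 2 measured chains of cartilage collagen IX crossed: COL9A2 went from 1.77, 1.39 and 1.42 CPM to 9.44, 5.91 and 7.21 CPM (2.30 ± 0.24, adjusted p = 2.42e-06), and COL9A3 from 21.6, 18.0 and 19.3 CPM to 12.0, 7.71 and 7.08 CPM (-1.13 ± 0.18, adjusted p = 0.00011). With the correction COL9A2 was at 1.21 and COL9A3 at -2.32. COL12A1, a fibril-associated collagen of dense connective tissue, had 101, 105 and 127 counts in siNC and 0, 2 and 0 in siOSBPL3 (ratio 195, interval 53.6 to 1619). Its fitted log2 fold change of -7.35 hung on those 2 counts and was -9.91 without siOSBPL3 replicate 2. COL14A1, COL20A1 and COL21A1 had at most 10 counts in any library.

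Fibrillar collagens, the main product of fibroblasts, were low in both groups. COL1A1, a chain of the most abundant collagen of connective tissue, stood at 9.80, 10.5 and 11.7 CPM in siNC and at 5.32, 5.33 and 2.78 CPM in siOSBPL3 (-1.26 ± 0.23, edgeR adjusted p = 0.00029; -1.93 with the correction). COL3A1, usually expressed beside it in fibroblasts, had 0 counts in siNC and 1 over siOSBPL3. COL27A1, a fibrillar collagen of cartilage, was the highest of the class in siNC at 16.0, 17.2 and 17.2 CPM and fell to 2.69, 2.19 and 3.31 CPM (-2.62 ± 0.17, adjusted p = 3.03e-08). COL2A1, the main cartilage collagen, had 42, 19 and 26 counts in siNC and 2, 0 and 0 in siOSBPL3 (ratio 51.0, interval 13.7 to 428; fitted value -5.41, -6.05 once corrected, and -7.97 without siOSBPL3 replicate 1).

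The minor fibrillar chains COL5A2 and COL11A2 were higher. COL5A2, a chain of the collagen V that nucleates fibrils, had 21, 2 and 12 counts in siNC and 181, 156 and 170 in siOSBPL3 (3.61 ± 0.48, edgeR adjusted p = 1.82e-05; 4.30 without siNC replicate 1). It lies 19.2 kb from COL3A1, which was near 0. COL11A2 had 30, 47 and 47 counts in siNC and 151, 102 and 96 in siOSBPL3 (1.26 ± 0.33, adjusted p = 0.0035), and missed the threshold once corrected (0.66, adjusted p = 0.064). COL5A1 had 0 counts in siNC and 1, 11 and 8 in siOSBPL3, at least 5.68-fold higher, and COL11A1 had 2, 5 and 3 counts in siNC and 0 in siOSBPL3, at least 3.91-fold lower. COL5A3 and COL24A1 had at most 11 counts in any library, as did COL26A1 and COL28A1 outside the class.

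**Figure D3:**
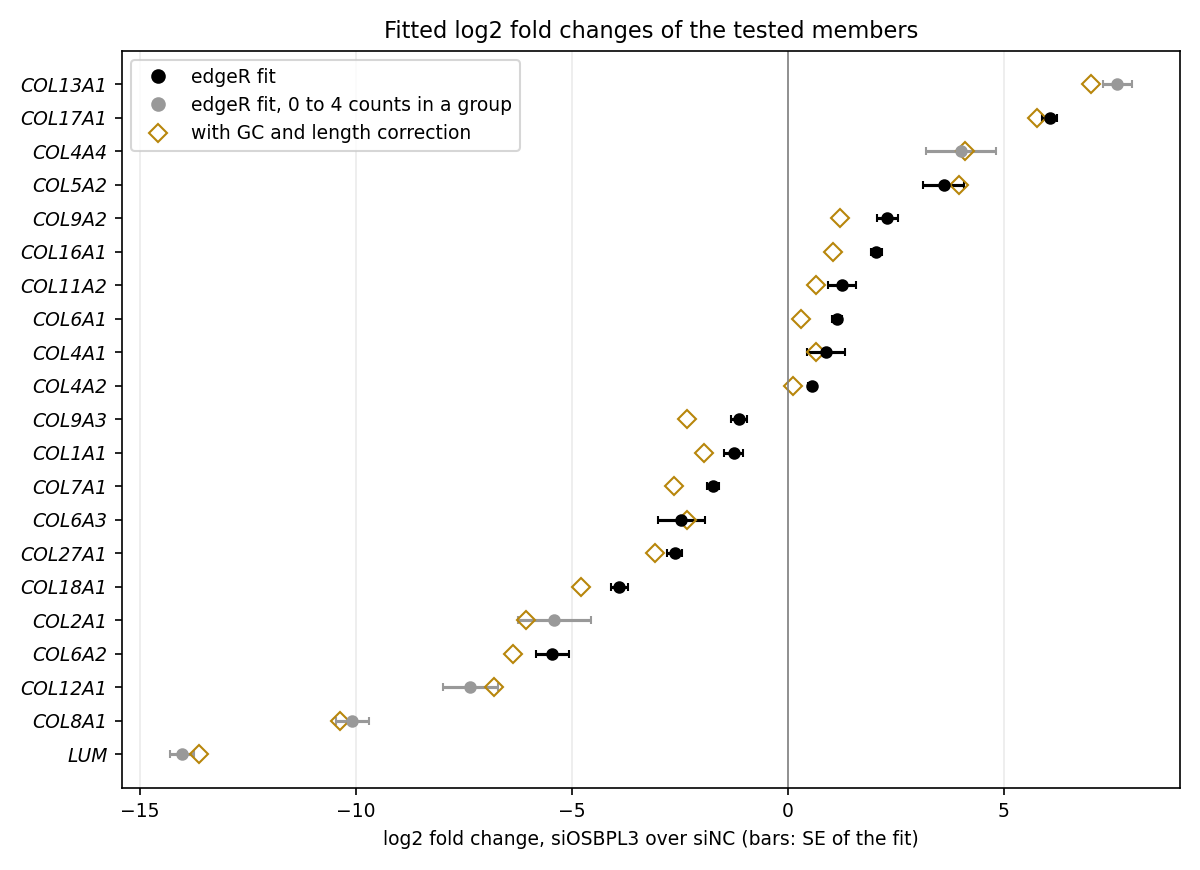
Log2 fold change, siOSBPL3 over siNC, of the 21 tested members with the SE of the fit (dots) and the value after the GC and length correction (diamonds), with members of 0 to 4 counts in a group in grey. The correction moves COL9A2 from 2.30 to 1.21, COL16A1 from 2.04 to 1.05 and COL9A3 from -1.13 to -2.32, and all 21 keep their side of 0.

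In CPM, the summed level of the collagens changed less than the levels of many single collagens. All 34 together stood at 265, 270 and 272 CPM in siNC and at 310, 315 and 267 CPM in siOSBPL3, so that the groups overlapped. The shares below are of a sum per kb, another measure, whose total need not follow that of CPM. Per kb of median transcript, COL16A1 went from 14.4 to 59.4 CPM and COL18A1 from 12.9 to 0.87 CPM. Per kb of median transcript, COL18A1 made up 13.8% of the collagen level in siNC and 0.56% in siOSBPL3, and COL16A1 15.4% and 38.3%. Per kb of longest transcript the shares were 21.7% and 1.19% for COL18A1 and 4.73% and 15.8% for COL16A1. Which collagen came first depended on the length used. By median transcript it was COL4A2 in siNC (22.0%) and COL16A1 in siOSBPL3, and by longest transcript COL6A1 in both (22.1% and 39.6%).

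**Figure D4:**
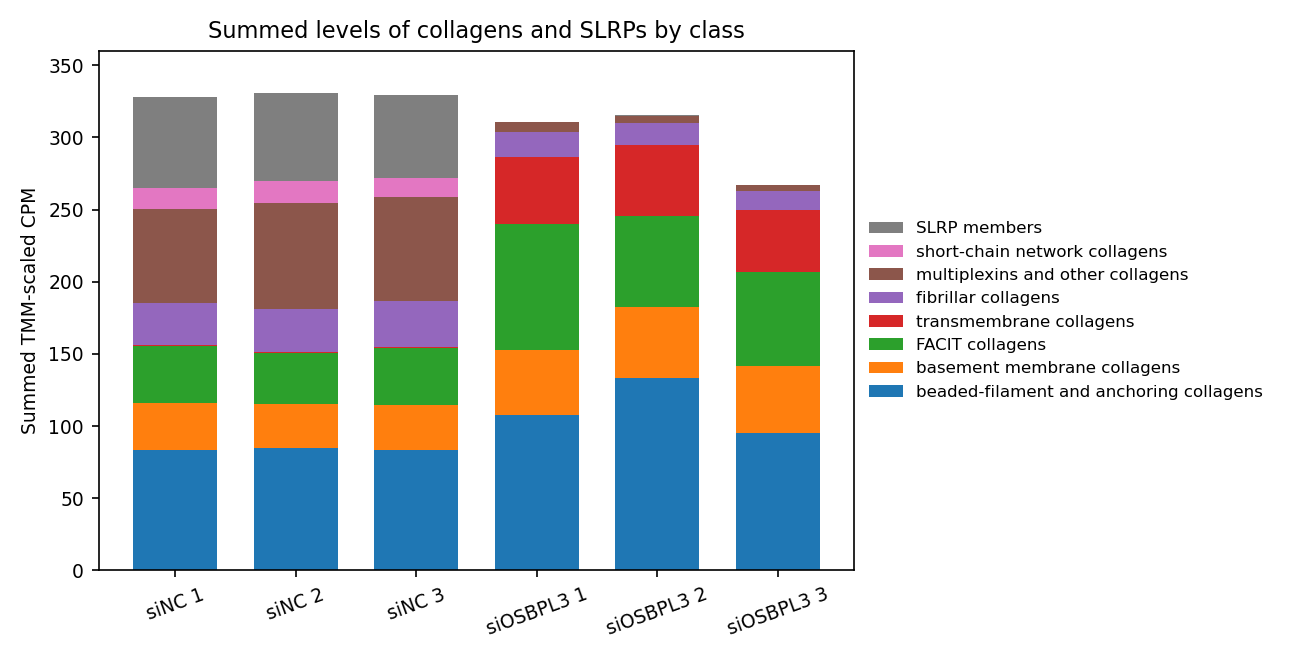
Summed CPM of the 40 members in each library, stacked by class. The total stands at 328 to 331 CPM in siNC and 267 to 315 CPM in siOSBPL3, with the multiplexin block shrinking from at least 65.5 to at most 6.40 CPM, the SLRP and short-chain blocks under 1 CPM in siOSBPL3, and the transmembrane block under 1 CPM in siNC.

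The siOSBPL3 libraries spread more than the siNC libraries. There were 9 members that averaged 1 CPM or more in both groups and 5 CPM or more in one, and all 9 had the higher CV in siOSBPL3. For COL18A1 it was 6.26% over siNC and 33.5% over siOSBPL3, and for COL6A1 2.15% and 18.5%, whereas COL4A2 differed little (4.78% and 5.39%).

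Markers of stromal cells were examined beside the collagens. Of 14 fibroblast and mesenchymal markers 10 had a row and 8 were tested, 3 higher and 4 lower, and their summed level was 1191 to 1196 CPM in siNC and 450.03 to 463 CPM in siOSBPL3. Most of it was VIM, the intermediate filament gene vimentin, at 694 ± 8.96 CPM (SD, n = 3) in siNC and 1.64 ± 0.87 CPM (n = 3) in siOSBPL3, and S100A4, at 485 and 335 CPM. TAGLN and ACTA2, smooth muscle and stress fibre genes, rose from 3.67 to 109 and from 1.35 to 5.02 CPM. SPARC, a collagen-binding matrix protein gene, rose from 2 counts over siNC to 239 over siOSBPL3, and FN1, fibronectin, fell from 7.34 to 0.46 CPM. Of the other markers on the list, THY1 had 5 counts over siNC and 2 over siOSBPL3, and FAP 1 and 14. PDGFRB had 114 and 53 (called lower, edgeR adjusted p = 0.028), and FBN1 60 and 62. The members DCN (5 and 1 counts) and COL3A1 (0 and 1), which are not on that list, were near 0. Endothelial markers (3 of 5 with a row) summed to 1.39 to 2.37 CPM in siNC and 0.22 to 0.80 CPM in siOSBPL3. Leukocyte markers (5 of 5) summed to 18.2 to 20.5 and 8.52 to 10.7 CPM, led by CD68, which fell from 19.0 to 5.87 CPM. CD14 rose from 27 to 346 counts, and PTPRC had 8 and 12. Cartilage and stellate cell markers (4 of 7) were nearly all SOX9, at 201 and 159 CPM, a gene that intestinal cells also express. The part of VIM and the other marker differences in the results on collagens was not tested. In bulk RNA fewer cells of a type and less RNA per cell cannot be told apart.

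The genes that fold and modify collagen chains moved in both directions. Of 19 enzymes and chaperones of the endoplasmic reticulum 18 were tested, 10 higher, 7 lower and 1 not called. The median log2 fold change was 0.58 (9 higher and 7 lower, median 0.22, corrected for transcript GC content and length). P3H3 (3.62 ± 0.12; 2.61 once corrected), of the prolyl 3-hydroxylase family, and CRTAP (2.16 ± 0.09), a partner in prolyl 3-hydroxylation, rose from 3.47 to 42.6 and from 52.7 to 236 CPM. PLOD2, the lysyl hydroxylase of the telopeptides used in crosslinks, fell from 47.6 to 1.82 CPM (-4.70 ± 0.16; -3.91 once corrected), and COLGALT2, a collagen galactosyltransferase, from 37.9 to 0.36 CPM (-6.71 ± 0.24). Paralogues of both, PLOD1 (30.4 to 194 CPM), PLOD3 (40.6 to 127) and COLGALT1 (49.7 to 125), rose. SERPINH1, the collagen chaperone HSP47, rose from 49.5 to 159 CPM. P3H2, a paralogue of P3H3, fell from 8.64 to 0.54 CPM. Also lower were P4HA1 (93.4 to 47.5 CPM), FKBP10 (94.5 to 49.9) and FKBP14 (35.2 to 17.3). P3H1 (42.3 to 36.1 CPM) was called lower only narrowly (-0.23 ± 0.10, edgeR adjusted p = 0.046).

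Secretion and processing genes were examined next. Of 11 genes for the export of procollagen in COPII carriers 6 were higher, 3 lower and 2 not called (median 0.42; 8 higher and 1 lower, median 0.36, with the GC and length correction). SEC31A, a coat subunit, fell from 149 to 13.7 CPM (-3.44 ± 0.09), and SAR1A (1.39 ± 0.10; 1.98 once corrected), SEC13 (1.00 ± 0.09) and PREB (0.77 ± 0.10; 0.14 and adjusted p = 0.29 once corrected) were higher. Of 13 genes for procollagen cleavage and crosslinking 12 had a row and 10 were tested, 5 higher, 3 lower and 2 not called (median 0.83, and -0.02 with that correction). BMP1, the procollagen C-proteinase, rose from 8.03 to 53.8 CPM (2.74 ± 0.14; 2.01 once corrected), LOXL3 rose (2.61 ± 0.17), LOXL1 was higher (1.43 ± 0.15; 0.28 and adjusted p = 0.091 with the correction), and ADAMTS14, an N-proteinase, fell (-1.83 ± 0.16). LOX, the founding lysyl oxidase, had 262 counts over siNC and 2 over siOSBPL3.

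Among collagen receptors 8 of 10 were tested, 3 higher, 1 lower and 4 not called (median -0.05; 5 higher and 1 lower, median 0.94, with the correction). MRC2, an endocytic collagen receptor, rose from 0.30 to 12.8 CPM (5.38 ± 0.27; 4.65 with the correction) and DDR1, a receptor kinase for collagen, from 43.8 to 138 CPM (1.66 ± 0.10; 0.89 with the correction). ITGB1, the shared beta chain of the collagen-binding integrins, fell from 554 to 226 CPM (-1.29 ± 0.09; -0.62 with the correction). Of 28 genes that build glycosaminoglycan chains on proteoglycan cores 26 had a row and 25 were tested, 15 higher, 5 lower and 5 not called (median 1.54, and 0.71 with the correction). B4GALT7, which adds the first galactose of the linker to the core protein, rose from 1.76 to 33.4 CPM (4.25 ± 0.15; 3.45 with the correction), and the chondroitin sulphotransferase gene CHST3 from 1.37 to 39.1 CPM (4.82 ± 0.16). The chondroitin sulphotransferase genes CHST15 and CHST11 fell from 51.9 to 0.17 and from 25.3 to 0.55 CPM (CHST11 -5.53 ± 0.17; -6.16 with the correction). None of these lists was tested as a set, and their counts stand beside the background of 40.4% higher and 39.8% lower.

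**Figure D5:**
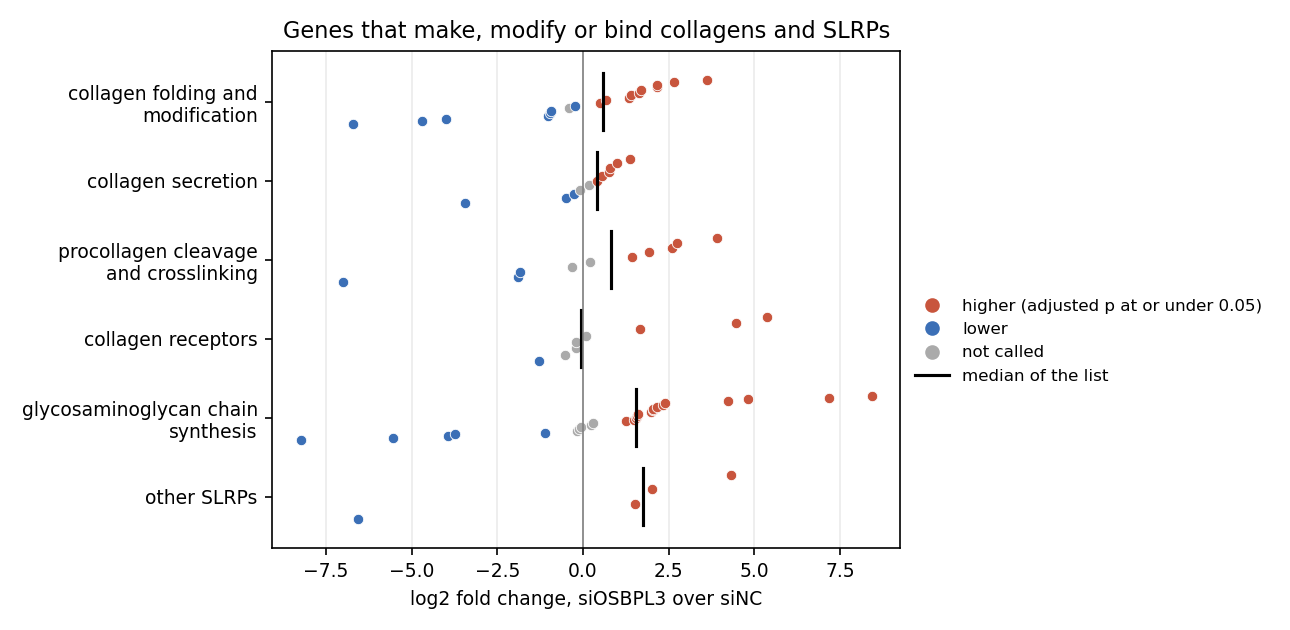
Log2 fold change, siOSBPL3 over siNC, of each tested gene of 6 lists for the making, modifying and binding of collagens and SLRPs, coloured by call, with the median of each list as a black bar. Genes lie on both sides of 0 in each list, with medians from -0.05 for the receptors to 1.77 for the other SLRPs.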

How the data were processed

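Expression was measured in 6 libraries, grouped by sample title. The authors deposited raw whole-number counts per gene symbol, not normalized. HISAT2 2.2.1, HTSeq 0.13.5 and GRCh38 (hg38) are named, per the submitters' processing notes. The sources used here give neither the annotation nor the strand setting, so antisense and near-identical genes may share or lose reads. Members and lists were chosen with earlier results of these data known. Counts were kept by filterByExpr (minimum count 10, total 15), scaled by TMM and tested with edgeR 4.0.16 in R 4.3.3 (robust quasi-likelihood, group alone, two-sided, Benjamini-Hochberg over all genes tested, threshold 0.05). A positive log2 fold change means higher in siOSBPL3, and its SE was taken as its size divided by the root of F. Folds against 0 counts use 3 counts over the group (0.031 CPM in siNC, 0.027 CPM in siOSBPL3), and 1 to 4 counts give a ratio with an exact 95% binomial interval. Lengths and GC content came from GENCODE 29 protein-coding transcripts (89.1% of tested genes, 100% of members), positions from RefSeq. The correction was a per-library smooth of both (mgcv 1.9.3). The named genes were LUM, COL8A1, all SLRPs, collagens of at least 5 CPM in a group, up to 4 called genes of each pathway list with the smallest adjusted p and 5 CPM, cluster neighbours, and defining genes of the marker lists. PLOD1, PLOD3, COLGALT1, SERPINH1, LOX, SLC19A1 and the marker genes singled out by size were chosen after their values were seen. So were P3H1, P3H2, P4HA1, FKBP10 and FKBP14. In 3 simulations, each with 200 genes changed, 15247 to 15263 genes were tested. The test called 79.5% at 2-fold and 95.9% at 4-fold, with 7.87% of calls false. Those simulations changed a far smaller share of genes than the 80.2% called here, so their rates do not carry over to this comparison. Alternatives were DESeq2 1.42.0, limma-voom (limma 3.58.1), library totals, RLE factors, a mean of 5 CPM, no filter, a threshold of 0.01, the replicate block and leaving out each library. Replicates differed by more than counting error (chi-square over its degrees of freedom 2.98 to 3.59 in siNC and 19.5 to 52.1 in siOSBPL3).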

Additional observations from a re-analysis of the deposited data

How the results depend on the processing

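Of 320 values of OSBPL3 and the 21 tested members under the alternatives, 317 kept their direction and their side of the threshold, 2 lost the call (COL4A2 and COL11A2, with the GC and length correction), 1 gained it (COL4A1, without siNC replicate 2) and 0 changed direction. The counts of 9 higher and 11 lower became 4 and 7 when an average of 5 CPM was required, where 11 members could be tested. Without a filter 10 and 13 of 39 were called. The median of -1.13 became -0.0075 without a filter, where sparse members enter, and -1.93 with the GC and length correction, whose cause was not tested. Placing few-count members at their bound or ratio, chosen after seeing the data, left it at -1.13. It could not have moved, because those members lay far from the median and kept their side of it. Leaving out each library gave 9 to 10 higher, 11 to 12 lower and 11814 to 13034 genes called. The fitted value of COL8A1 was -11.86 without siOSBPL3 replicate 2, and that of LUM -12.14 with limma-voom. With a floor of 1 count LUM was at least 6785-fold lower. Shared replicate numbers did not pair the samples: deviations of same-numbered libraries correlated at -0.020, -0.0042 and -0.019, and with the replicate block 9 members were higher and 11 lower, with 12277 genes called. The 19 untested members averaged at most 0.31 CPM in either group, and whether deeper libraries would let them be tested was not examined.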

Other observations

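COL4A2-AS2, an antisense gene inside COL4A2 chosen after its values were seen, had 63, 44 and 41 counts in siNC and 0, 1 and 0 in siOSBPL3 (ratio 174, exact 95% counting interval 30.7 to 6902), while COL4A2 itself was higher in siOSBPL3. Its exons share 14 bases with those of COL4A2 in GENCODE 29, and the sources used here give no strand setting. COL4A2-AS1 had 29 counts over siNC and 17 over siOSBPL3, and COL18A1-AS1 had 0 and 8.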
